A study of Mus musculus with 16 samples.

Results

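The 47 probe sets described here were at least 2-fold higher after activation of Notch1 in mesodermal cells and under 1.5-fold in embryonic stem cells (ESC). They are 47 of the 45037 probe sets of the array and name 36 genes, with 3 probe sets that have no single gene name in the annotation used here. They were selected on measured values. In NERT mesodermal cells without cycloheximide (CHX) the mean of the +OHT arrays had to be at least 2-fold over the mean of the -OHT arrays with a difference over 50 intensity units, and both +OHT arrays had to lie above both -OHT arrays. In both NERT ESC pairs the ratio had to stay under 1.5. Of all probe sets, 223 (0.495%) met the mesodermal conditions at any ESC response, 53 of them met the ESC limit as well, and 6 of those were left out by symbol (members of the Hes, Hey, interferon-induced, Egr, Dusp and Sox families and a few single genes are outside the rule). For comparison, 78 probe sets met the 2-fold, difference and array conditions in mesodermal cells and were at least 2-fold higher in both ESC pairs. No symbols were left out of these 78.

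The study activated Notch1 in EB5 cells, a mouse ESC line, with NERT, an intracellular domain of Notch1 fused to a hormone-binding domain that moves to the nucleus when 4-hydroxytamoxifen (OHT) is added. EB5 NERT cells and EB5 control cells, which carry the pCAG vector without NERT, were each 1 line, so a difference between the lines and a difference between constructs cannot be told apart. OHT was given at 1 µM for 4 h, and CHX, which blocks protein synthesis, at 50 µg/ml for the same 4 h. Expression was read on 16 arrays in 12 groups. NERT mesodermal cells gave 2 arrays each with CHX and OHT, with CHX alone, with OHT alone and without either. NERT cells in ectoderm-promoting medium without serum (ESCe) and in mesoderm-promoting medium with serum (ESCm), both at day 0, gave 1 array each with and without OHT. Control mesodermal cells and control cells in ESCm also gave 1 array each with and without OHT. Mesodermal cells had been kept for 4 d in serum on collagen IV and were not sorted before RNA was taken. The labels number the replicates but do not say that they came from separate cultures, so the p-values rest on array-to-array spread that could be technical in part. In such mixed cultures fewer cells of a type and less RNA per cell cannot be told apart.

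Notch receptors are cut on contact with ligands of neighbouring cells, and the released intracellular domain joins the DNA-binding protein RBP-J and turns genes on. The best known targets, repressors of the Hes and Hey families and the feedback regulator Nrarp, respond in many cell types, while other targets depend on the cell. During gastrulation Notch activity takes part in setting the boundaries and fates of mesodermal cells. CHX allows genes that respond without new protein to be separated from those that need a protein made first.

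The system responded in every NERT population. Nrarp stood at 5335 and 5029 in the +OHT arrays of NERT mesoderm, against 534 and 707 in the -OHT arrays, at 1691 against 110.3 in ESCe and at 1769 against 113 in ESCm. In control mesoderm Nrarp read 80.7 with OHT and 87.4 without. Summed levels of 9 primitive streak and mesoderm markers were 4284 to 5236 in NERT mesoderm without CHX, 1207 to 1531 in NERT mesoderm with CHX, 1572 to 1601 in control mesoderm and 580 to 659 in ESC. Those of 7 markers of pluripotent cells stayed high, at 19420 to 21006 in NERT mesoderm without CHX, 17834 to 23646 with CHX, 25401 to 25627 in control mesoderm and 27072 to 28786 in ESC. Among these, Nanog read 1247 to 2372 in NERT mesoderm without CHX and 1909 to 2715 in ESC, and Zfp42 read 660 to 1589 and 4337 to 5554. Kdr, which encodes the sorting marker Flk1, read 173 to 277 in NERT mesoderm without CHX and 129.9 to 234 in ESC. Of 7 endothelial and blood genes, Pecam1, Cdh5, Tie1, Hbb-bh1 and Ptprc were under 50 in all NERT mesoderm arrays without CHX. In the same arrays Gata1 read 50.6 to 63.9 and Spi1 33.5 to 51.6. In NERT mesoderm without CHX, summed levels of 5 endoderm markers were 135 to 166 with OHT and 257 to 304 without. Those of 5 neuroectoderm markers were 711 to 914 and 284 to 386, chiefly from Nes. With CHX the endoderm sums overlapped, at 390 to 572 with OHT and 369 to 444.5 without. The neuroectoderm sums with CHX were 808.5 to 1422 with OHT and 759 to 792 without. The part of these shifts in the members' values was not tested.

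The members' ratios in NERT mesoderm ran between 2.00 and 6.36, with a median of 2.33. Of the 47, 31 were under 2.5-fold and 9 over 3-fold. The same probe sets had ratios of 0.231 to 1.46 in ESCe (median 1.19) and 0.582 to 1.49 in ESCm (median 1.07). The ratio was above 1 in 35 of the 47 in ESCe and in 29 in ESCm, with 1 array on each side. These are the values that chose the members, and no test is attached to them. The map of changes places the mesodermal column without CHX beside the other 5 pairs.

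**Figure D1:**
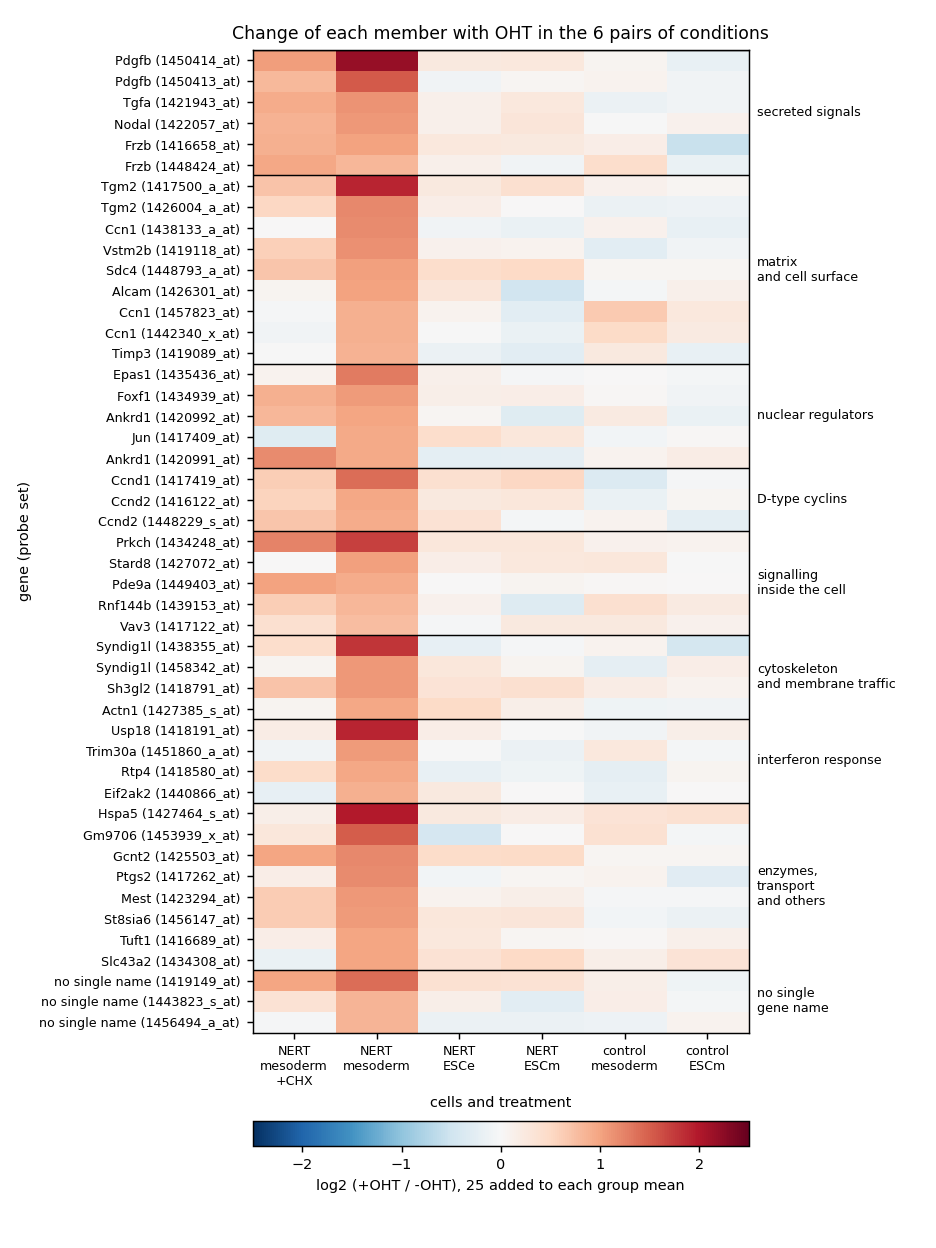
Change with OHT of each of the 47 members (rows, grouped by role) in the 6 pairs of conditions (columns), as log2 of the +OHT over the -OHT group mean after adding 25 to each. Red is higher with OHT. The column of NERT mesoderm without CHX is red in every row because it chose the members, the column with CHX is red for secreted signals and near white for interferon genes, and the control columns are pale.

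The arrays with CHX took no part in choosing the members. The values without CHX did, so a smaller change with CHX than without it is no measure of an effect of CHX. Of the 47, 38 had a change above 0, beside 11927 of all 23971 probe sets tested. The median change was 0.48 on the log2 scale, beside a median of -0.001 over all of them. For 7 genes several member probe sets are counted, so the 47 are not independent. The limma test called 1 member higher, the Wnt inhibitor Frzb, beside 0.567% of all probe sets, and 0 members lower, beside 0.0501%. At an unadjusted p under 0.05, 23 members were higher (3.73% of all probe sets) and 0 lower. In 27 members both +CHX +OHT arrays lay above both +CHX -OHT arrays (16.4% of all probe sets), and in 0 members they lay below (13.7%). The ratio of means was at least 2 in 12 members (1.08% of all) and at least 1.5 in 27 (3.23% of all). For the 47 members the median ratio without CHX was 2.33, against 3.71 for the 78 probe sets at least 2-fold higher in both ESC pairs. Of those 78, 46 were called with CHX, and the median change over all 78 was 1.55 on the log2 scale. The 78 keep the families left out of the members by symbol, so the 2 sets differ in more than the ESC response. Values under CHX are given by role below, with no test between roles.

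**Figure D2:**
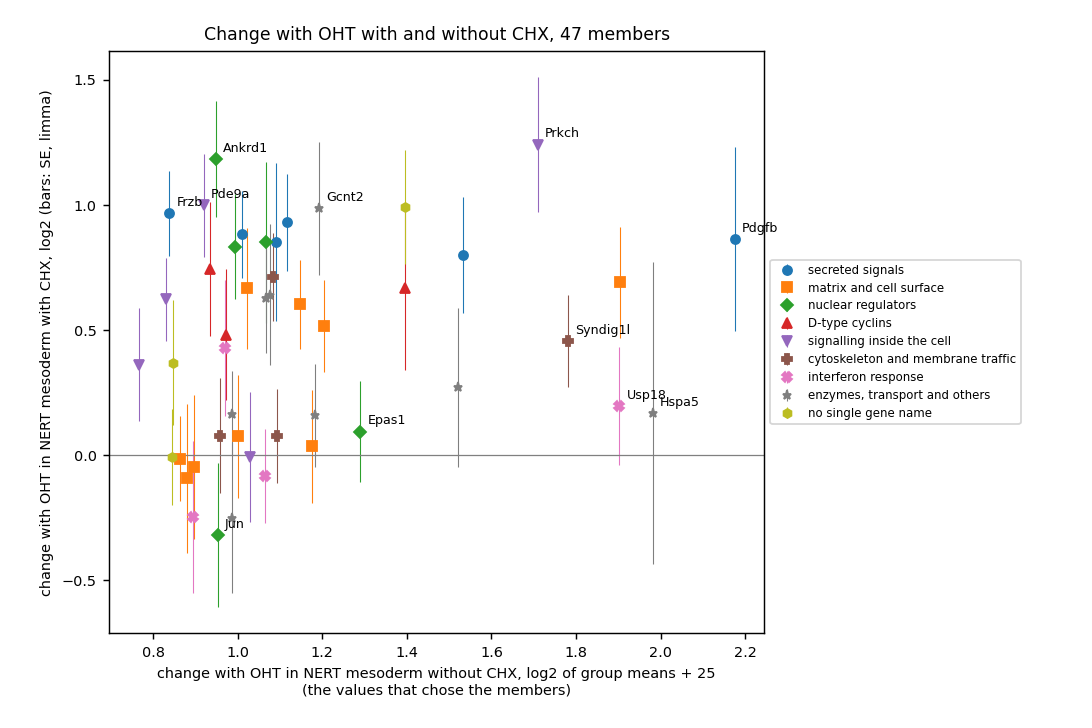
Change with OHT in NERT mesoderm with CHX (vertical axis, log2, limma estimate with SE bars) against the change without CHX (horizontal axis, log2 of group means after adding 25) for the 47 members, with a symbol for each role. Secreted signals lie between 0.80 and 0.97 with CHX. Jun lies lowest, and Usp18 and Hspa5 are far right and near 0.

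Secreted signals had the highest median ratio of the roles with CHX. All 6 probe sets of Pdgfb, Tgfa, Nodal and Frzb were at least 1.5-fold, between 1.84 and 3.18 with a median of 2.14. In 5 of the 6 the arrays with OHT lay above those without.

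Pdgfb, on chr15:79995865-80024614, encodes a chain of platelet-derived growth factor, which acts on mesenchymal and perivascular cells. Its stronger probe set read 1137 and 1418 in the +OHT arrays of NERT mesoderm, against 274 and 253 in the -OHT arrays, a ratio of 4.85. With CHX it read 540.1 and 1572 with OHT, against 496 and 499 without. The +CHX +OHT arrays were far apart, with 1 of them barely above the uninduced pair, and the change of 0.86 ± 0.37 on the log2 scale (SE) did not pass (adjusted p = 0.809). In ESCe it read 172 with OHT and 142 without, in ESCm 177 and 142, in control mesoderm 253 and 240.4. The second Pdgfb probe set read 134 and 214 with OHT in mesoderm, against 42.2 and 45.3 without, a ratio of 3.97, and 94.6 and 144 with OHT under CHX, against 50.6 and 63.3. Both probe sets kept the groups apart under both conditions.

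Frzb, on chr2:80411970-80447396, encodes a secreted protein that binds Wnt ligands. Its first probe set read 142 and 153 with OHT in mesoderm, against 59.6 and 83.0 without, a ratio of 2.06. In CHX-treated cells it read 62.0 and 60.8 with OHT, against 16.4 and 22.2 without, a ratio of 3.18 and a change of 0.97 ± 0.17 on the log2 scale (adjusted p = 0.033). Frzb was the only member to pass this test, at levels lower than without CHX in both groups. Leaving out any 1 of the 4 arrays with CHX ended the call, with adjusted p between 0.0509 and 0.342. The second Frzb probe set read 223 and 245 with OHT, against 91.3 and 116 without, and 141 and 156 against 63.4 and 75.1 under CHX (0.88 ± 0.17, adjusted p = 0.058). In the 6 ESC arrays both probe sets stayed between 6.49 and 31.7.

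Tgfa encodes a ligand of the EGF receptor. It read 185 and 263 with OHT in mesoderm, against 79.98 and 99.6 without, and 158 and 148 against 63.3 and 73.7 under CHX (0.93 ± 0.19 on the log2 scale, adjusted p = 0.0812). The ratio of Tgfa was 2.23 with CHX and 2.49 without on this probe set, while its 2 other probe sets, at means of 28.97 to 68.7, had ratios of 0.886 and 0.866 with CHX and 1.07 on both without. Nodal, a ligand of the TGF-beta family that patterns the primitive streak, read 2524 and 2513 with OHT in mesoderm, against 1314 and 1024 without. Under CHX the Nodal arrays overlapped, at 1307 and 2488 with OHT and 727 and 1337 without, with a ratio of means of 1.84. A brighter Nodal probe set, which is not a member, had means of 4141 with OHT and 2357 without in mesoderm. Its ratio was 1.76 without CHX and 1.58 with it.

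Promoter sequences were looked up for the 36 named genes in RefSeq (GRCm38.p6, 250 bases before to 50 bases after a start site), and 23 genes had an entry. Ccnd1, Ccnd2, Epas1, Foxf1, Gm9706, Pde9a, Pdgfb, Prkch, Rtp4, Syndig1l, Tgm2, Tuft1 and Usp18 had none in the table. The letters GTGGGAA, a form of the RBP-J site, were searched on both strands and occurred in 4 of the 23 genes (17.4%), Gcnt2, Frzb, Actn1 and Eif2ak2, beside 7.25% of the 27025 genes in the table. These 4 promoters are shown because they are the only ones with the match and because the genes differ under CHX, with changes of 0.99 for Gcnt2, 0.97 for Frzb, 0.08 for Actn1 and -0.25 for Eif2ak2 on the log2 scale. A gene was counted if any of its start sites in the table had the match. The Gcnt2 start site shown lies inside the gene, which spans chr13:40859768-40960892. Whether the member probe set of Gcnt2 reads the transcript from that start was not tested. The capitals mark GTGGGAA, which lay on the gene's own strand in each.
Gcnt2, chr13:40917384-40917683, plus strand: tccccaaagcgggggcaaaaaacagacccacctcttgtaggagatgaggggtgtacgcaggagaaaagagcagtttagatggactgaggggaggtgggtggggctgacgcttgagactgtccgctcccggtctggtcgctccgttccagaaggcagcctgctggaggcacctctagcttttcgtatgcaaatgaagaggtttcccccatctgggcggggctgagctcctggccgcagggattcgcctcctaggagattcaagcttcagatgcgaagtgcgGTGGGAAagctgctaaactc
Frzb, chr2:80447347-80447646, minus strand: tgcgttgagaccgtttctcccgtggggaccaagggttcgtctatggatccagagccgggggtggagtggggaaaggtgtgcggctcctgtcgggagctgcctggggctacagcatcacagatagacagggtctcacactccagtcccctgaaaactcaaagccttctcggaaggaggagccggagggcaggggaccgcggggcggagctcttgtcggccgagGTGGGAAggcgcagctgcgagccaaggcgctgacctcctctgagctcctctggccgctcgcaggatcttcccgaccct
Actn1, chr12:80260314-80260613, minus strand: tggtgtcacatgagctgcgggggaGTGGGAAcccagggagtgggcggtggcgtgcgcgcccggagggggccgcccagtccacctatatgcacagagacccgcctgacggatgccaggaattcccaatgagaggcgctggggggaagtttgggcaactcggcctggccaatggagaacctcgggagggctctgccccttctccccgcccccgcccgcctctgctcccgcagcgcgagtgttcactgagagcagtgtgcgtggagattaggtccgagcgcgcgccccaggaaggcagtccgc
Eif2ak2, chr17:78882523-78882822, minus strand: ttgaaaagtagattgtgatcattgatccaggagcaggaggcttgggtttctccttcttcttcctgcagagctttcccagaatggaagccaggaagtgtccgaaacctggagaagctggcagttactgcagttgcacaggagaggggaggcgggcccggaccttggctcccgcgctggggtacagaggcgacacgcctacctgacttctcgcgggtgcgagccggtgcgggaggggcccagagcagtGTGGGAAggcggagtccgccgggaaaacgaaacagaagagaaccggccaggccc

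The match began 226 bases before the start site in Actn1, 28 bases before it in Frzb, 4 bases before it in Eif2ak2 and 30 bases past it in Gcnt2. The shorter letters TGGGAA, which GTGGGAA contains, occurred in 9 of the 23 genes (39.1%), beside 28.3% of all genes. GGAATG, the TEAD letters, occurred in 4 (17.4%, beside 16.6%), among them Ankrd1 and Ccn1. TGANTCA, the AP-1 letters, occurred in 3 of the 23 (beside 8.97% of all genes), the interferon response element in 2 (8.70%, beside 3.99%), which were Eif2ak2 and Trim30a, and the SRF box in 0 (beside 1.81%). These are descriptions of the window searched, and a match is not a bound site.

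Matrix and surface proteins differed among themselves under CHX, with ratios between 0.934 and 1.83 and a median of 1.07. Tgm2, a transglutaminase that cross-links proteins, was at 408 and 554 with OHT in mesoderm on its first probe set, against 103 and 118 without, a ratio of 4.36. Under CHX it read 119 and 183 with OHT, against 89.9 and 74.8 without. The groups were apart in both settings, and the change under CHX was 0.69 ± 0.22 on the log2 scale (adjusted p = 0.459). The second Tgm2 probe set read 154 and 226 with OHT, against 66.7 and 70.3 without, and 51.8 and 55.5 against 28.2 and 31.7 under CHX.

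Tgm2 also showed that membership belongs to probe sets and not to genes. Its other 3 probe sets with a mesodermal ratio over 2 had higher ratios, 5.75 to 6.04, and were not members because their ESC ratios, 1.41 to 1.78, reached the limit of 1.5 in at least 1 medium. The highest of them read 477 and 612 with OHT in mesoderm, against 85.2 and 95.1 without, but also 129.8 against 88.7 in ESCe and 121 against 68.0 in ESCm. With CHX these 3 probe sets had ratios of 2.66 to 2.84 and passed the test, with adjusted p of 0.007, 0.026 and 0.036.

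Ccn1 (Cyr61), a secreted matrix protein and a well known target of YAP and TEAD, was represented by 3 member probe sets. Its stronger probe set read 1195 and 996 with OHT in mesoderm, against 539 and 403 without, a ratio of 2.32. With CHX it read 2338 and 2527 with OHT, against 1899 and 2955 without, so the groups overlapped at levels above those without CHX. The other 2 probe sets had ratios of 0.972 and 0.934 with CHX and 2.14 and 2.11 without. Timp3, an inhibitor of matrix metalloproteinases, and Alcam, an adhesion molecule, also had overlapping arrays under CHX, where Timp3 had a ratio of 0.987 and Alcam 1.07, beside 2.23 and 2.33 without CHX. The heparan sulfate proteoglycan Sdc4 and the membrane protein gene Vstm2b kept higher ratios under CHX, 1.64 and 1.71, beside 2.06 and 2.63 without it, and the arrays of each did not overlap under CHX.

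Nuclear regulators ran between 0.809 and 2.35 under CHX. Ankrd1, a cofactor of transcription and a second YAP and TEAD target, read 96.8 and 145 with OHT in mesoderm, against 37.9 and 63.5 without, a ratio of 2.39. Cells with CHX read 1044 and 883 with OHT, against 367 and 454 without, a ratio of 2.35 (1.18 ± 0.23 on the log2 scale, adjusted p = 0.058). The levels of Ankrd1 with CHX were thus several times those without, with nearly the same ratio. The second Ankrd1 probe set had a ratio of 1.82 with CHX and 2.34 without.

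Foxf1, a forkhead factor of lateral plate mesoderm, read 39.9 and 110.3 with OHT, against 17.8 and 27.7 without, a ratio of 3.30. With CHX Foxf1 read 133 and 237 with OHT, against 85.9 and 89.7 without. Only 1 of the 4 arrays without CHX was above 50, so the ratio without CHX rested on a low level. Another Foxf1 probe set, not a member and at means of 43.2 to 50.8, had ratios of 1.175 without CHX and 1.005 with it. Epas1 (HIF-2 alpha), a regulator of the response to low oxygen and of vessels, read 362 and 481 with OHT, against 136 and 179 without, a ratio of 2.67. Under CHX the arrays of Epas1 overlapped, at 202 and 198 with OHT and 206 and 167 without. Jun, a subunit of AP-1, was at 403 and 596 with OHT, against 206 and 286 without, a ratio of 2.03, and at 2222 and 3625 against 2901 and 4329.7 under CHX, a ratio of 0.809 (-0.32 ± 0.29 on the log2 scale, adjusted p = 0.947). Both groups of Jun under CHX lay far above those without it.

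The D-type cyclins, which drive the G1 phase with Cdk4 and Cdk6, had 3 member probe sets. Ccnd1 read 852 and 1389 with OHT in mesoderm, against 368 and 452 without, a ratio of 2.73, and Ccnd2 read 1003 and 1152 against 534 and 541, a ratio of 2.01. Under CHX Ccnd1 read 381 and 568 with OHT, against 405 and 196 without, and Ccnd2 291 and 572 against 265 and 309. Neither gene kept its arrays apart under CHX on these probe sets, with ratios of 1.58 and 1.504. The second Ccnd2 probe set, whose arrays stayed apart under CHX, had a ratio of 1.81 with CHX and 2.06 without. The 2 other Ccnd1 probe sets, which missed the ESC limit, had ratios of 1.86 and 1.95 with CHX and 2.10 and 2.32 without. The brighter of them kept its arrays apart under CHX, at 1426 and 1549 with OHT, against 844 and 752 without (adjusted p = 0.308). In NERT ESC Ccnd1 read 1176 and 1353 with OHT and 889 and 943 without, so the uninduced ESC arrays lay above both uninduced mesodermal arrays.

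Of the 5 proteins that act in signalling inside the cell, Prkch (protein kinase C eta) had the largest change under CHX of all members on the log2 scale with 25 added, though not as a plain ratio, where the first Frzb probe set was higher. It read 259 and 463 with OHT in mesoderm, against 68.5 and 118 without, a ratio of 3.88. With CHX Prkch read 319.7 and 336 with OHT, against 117 and 131 without, a ratio of 2.64 (1.24 ± 0.27 on the log2 scale, adjusted p = 0.0966). No array with OHT fell into the range of those without in either setting, and in the 6 ESC arrays Prkch stayed between 44.5 and 84.0. Pde9a, a phosphodiesterase for cGMP, read 133 and 181 with OHT, against 69.2 and 73.1 without, and under CHX 182 and 137 against 78.8 and 55.6. Its ratio was 2.37 with CHX and 2.21 without (1.00 ± 0.20 on the log2 scale under CHX, adjusted p = 0.0755). Rnf144b, a ubiquitin ligase, had a ratio of 1.64 with CHX and 2.26 without, and Vav3 1.40 and 2.07. Stard8 read 394 and 535 with OHT, against 160.2 and 269.7 without, and overlapped under CHX at 207 and 304 with OHT and 244 and 262 without.

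Of the genes of cytoskeleton and membrane traffic, Syndig1l, a relative of a synaptic membrane protein, had dim values without OHT. Its first probe set read 153 and 111 with OHT, against 18.6 and 23.1 without, a ratio of 6.36 over values under 25, and the second 141 and 101 against 47.5 and 39.8. Under CHX the first read 24.1 and 27.9 with OHT, against 16.6 and 8.09 without, and the second 38.8 and 36.9 against 27.6 and 42.3. All Syndig1l values under CHX were below 50 in both groups, near the lower end of the array's range. Sh3gl2, an endophilin of vesicle uptake, read 274 and 293 with OHT, against 107 and 134 without, and under CHX 199.6 and 224 against 129 and 109.7. It had a ratio of 1.77 with CHX (0.71 ± 0.18 on the log2 scale) and 2.35 without, and the actin cross-linker Actn1 1.05 and 2.04. The 2 other Actn1 probe sets had ratios of 1.20 and 1.34 without CHX, the first of them at means of 4247 with OHT and 3529 without, far brighter than the member.

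The interferon response genes among the members showed little change under CHX, with ratios between 0.843 and 1.43 and a median of 1.04. Usp18, which removes the ubiquitin-like protein ISG15 from its targets and restrains interferon signalling, read 838 and 1341 with OHT in mesoderm, against 234 and 312 without, a ratio of 3.99. With CHX Usp18 read 151 and 163 with OHT, against 121 and 147 without (0.20 ± 0.24 on the log2 scale, adjusted p = 0.954), which left the arrays apart by a small gap. Rtp4, an interferon-induced receptor transporter, read 1063 and 1162 with OHT, against 511 and 601 without, and overlapped under CHX at 429.5 and 228 with OHT and 275 and 187 without. Eif2ak2, the kinase PKR that senses double-stranded RNA, read 189 and 386 against 124 and 162, and overlapped under CHX at 114 and 194 with OHT and 167 and 199 without. Trim30a had a ratio of 0.907 with CHX and 2.31 without, and a probe set shared by Trim30a and Trim30d had 0.958 and 2.28. Of 15 further genes of an interferon list, 12 had a mesodermal change above 0 without CHX, with a median of 0.32 on the log2 scale, beside -0.05 over all other genes, and 0 of them passed the test.

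In ESC and in control mesoderm Usp18, Rtp4 and Trim30a were below 50, while Eif2ak2 read 76.2 to 105 in ESC and 58.8 and 69.9 in control mesoderm. Usp18 read between 5.21 and 13.8 in the 6 ESC arrays and 21.9 and 24.6 in control mesoderm. Rtp4 read between 5.99 and 14.8 in ESC, and 31.8 and 41.6 in control mesoderm.

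The other genes had enzymes and transport proteins among them. Hspa5 (BiP), the main chaperone of the endoplasmic reticulum, read 2905 and 18876 with OHT in mesoderm, against 2572 and 2905 without, and its ratio of 3.98 came from a single array. The remaining +OHT array of Hspa5 was level with the higher uninduced one. Under CHX it read 2998 and 3072 with OHT, against 2309 and 3145 without, and its 2 other probe sets had mesodermal ratios of 1.17 and 1.07. Gm9706, on chromosome 17 and read by a probe set that may bind related transcripts, was at 53.9 and 156 with OHT, against 25.3 and 15.4 without. The uninduced arrays were near the lower end of the array's range, so the ratio of 5.17 is not a firm size. Under CHX it read 9.01 and 21.6 with OHT, against 8.20 and 7.75.

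Ptgs2 (cyclooxygenase 2) read 132 and 206 with OHT in mesoderm, against 55.2 and 65.5 without, a ratio of 2.80. With CHX Ptgs2 read 528 and 576 with OHT, against 522 and 462 without, a ratio of 1.12. Gcnt2, which makes branched I-type glycans, read 494 and 892 with OHT, against 234 and 345 without, and under CHX 572 and 657 against 293 and 300.2. Its arrays were apart in both settings. It had a ratio of 2.07 with CHX (0.99 ± 0.27 on the log2 scale, adjusted p = 0.265) and 2.40 without, and the sialyltransferase gene St8sia6 1.66 and 2.43. Mest, an imprinted gene expressed from the paternal allele, read 1609 and 2699.8 with OHT, against 734 and 1282 without, and under CHX 1501 and 1677 against 913 and 1112. Its ratio was 1.57 with CHX and 2.14 without. Tuft1 had 1.13 and 2.12, and the amino acid transporter Slc43a2 had 0.868 and 2.42. The 2 probe sets without any gene name had ratios of 2.01 and 1.54 with CHX and 2.75 and 2.04 without.

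**Figure D3:**
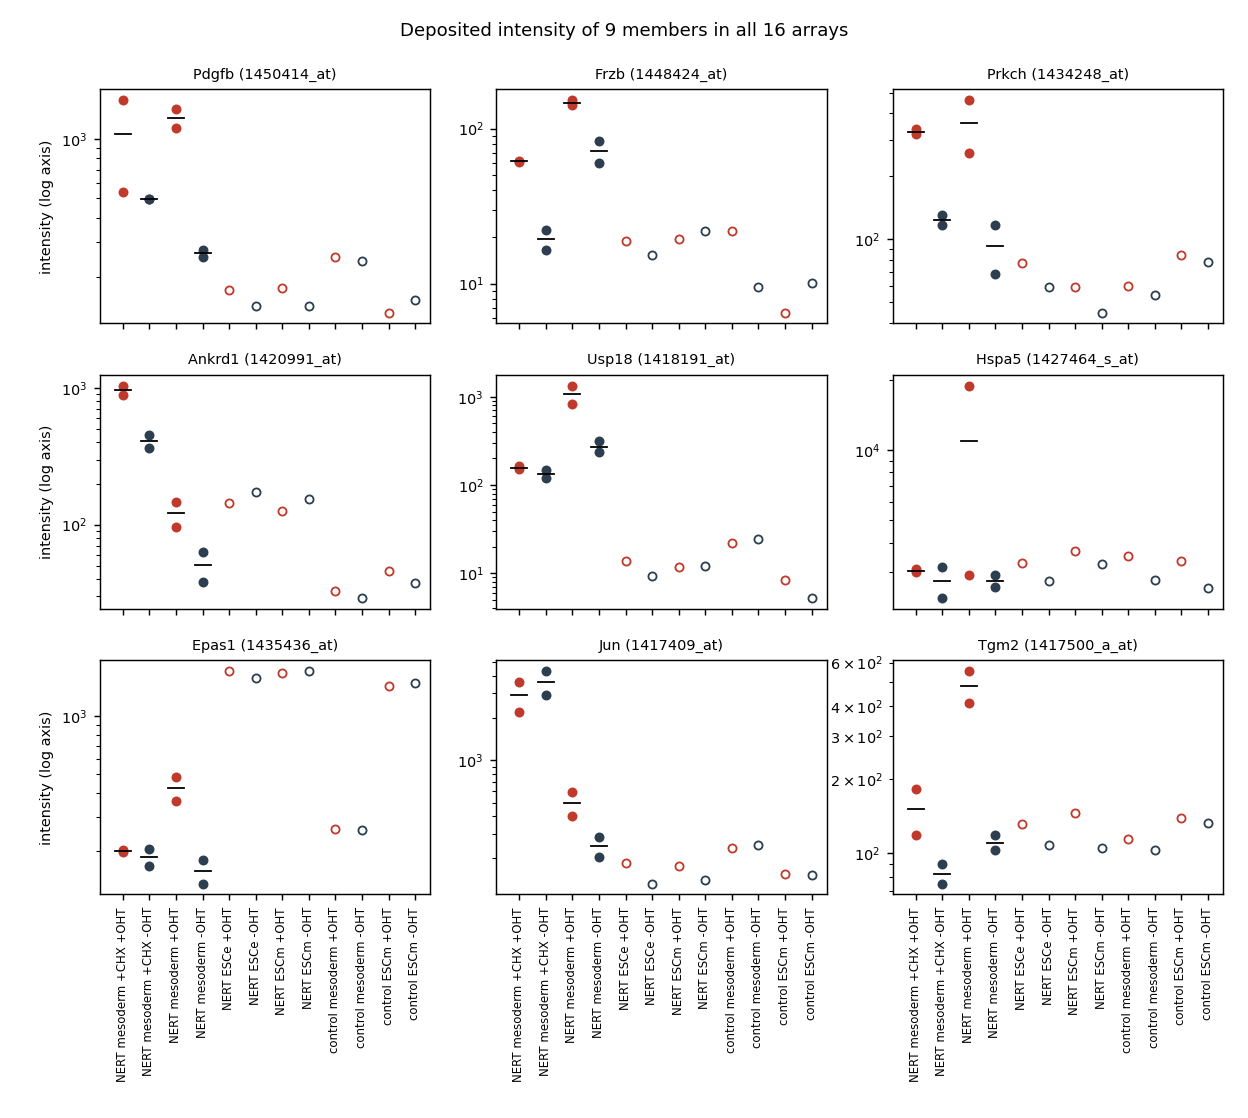
Deposited intensity (log axis) of 9 members in all 16 arrays, red with OHT and dark blue without, with filled points and a bar at the mean for groups of 2 arrays and open points for single arrays. Pdgfb, Prkch, Frzb, Ankrd1 and Tgm2 keep red above dark blue with and without CHX, Usp18 does so by a small gap with CHX, Epas1 and Jun overlap with CHX, and Hspa5 has 1 array at 18876.

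OHT in control cells moved no member past the test. Of all 25847 probe sets 0% were called in either direction, at an unadjusted p under 0.05 there were 202 higher and 106 lower, and of the members 0 reached even that. The members' changes with OHT in control cells lay between -0.19 and 0.46 on the log2 scale, with a median of 0.02. The upper end belonged to Ccn1, which read 109 with OHT and 60.0 without in control mesoderm on 1 of its probe sets. In this fit the 2 populations of control cells shared 1 OHT effect, and single arrays were assumed to have the spread of the replicated groups. Control mesoderm alone had changes between -0.34 and 0.66 on the log2 scale. There 2 members were at least 2-fold higher with OHT, Gm9706 (2.93) and the first Frzb probe set (2.32), and 0 were at most 0.5. Both read under 25 in all control arrays, and their ratios in control ESCm were 0.518 and 0.639. These ratios have 1 array on each side, so their spread is not known.

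The members' levels in ESC are given as a description, because the NERT arrays compared also took part in the choice of the members. No share over all probe sets stands beside the counts that follow. Of the 47, 24 were at 50 or more in each of the 6 ESC arrays, 14 were below 50 in each, and 9 were mixed. In 19 members the mean of the uninduced NERT ESC arrays was at least that of uninduced NERT mesoderm, and in 6 of these, Epas1, Sdc4, Ptgs2, both probe sets of Ankrd1 and a probe set without a gene name, it was at least that of induced mesoderm. Epas1 was the extreme case, with 1695 and 1663 with OHT and 1556 and 1699.8 without in the NERT ESC arrays, against 362 and 481 in induced mesoderm.

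A test of level that did not use the members' choice was made in the control line, where mesodermal cells were set against ESCm at equal OHT. It called 4 members higher in mesoderm (12.8% of all probe sets) and 4 lower (8.16%), so members were called about as often as other probe sets. Nodal read 869 with OHT and 874 without in control mesoderm, against 437 and 405 in control ESCm (1.01 ± 0.29 on the log2 scale, adjusted p = 0.0255), and Tgfa 57.1 and 66.3 against 17.6 and 20.6 (0.97 ± 0.16, adjusted p = 0.00121). Rtp4, at 31.8 and 41.6 against 8.71 and 7.13, and the second Tgm2 probe set, at 74.4 and 85.1 against 46.8 and 53.3, were the other 2 higher ones. Pdgfb, at 253 and 240.4 against 132 and 154, and Usp18, at 21.9 and 24.6 against 8.30 and 5.21, did not pass.

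Lower in control mesoderm were Epas1, at 259 and 258 against 1428 and 1471 (-2.38 ± 0.17 on the log2 scale, adjusted p = 2.14e-06), Sdc4, at 1179 and 1136 against 2925 and 2813 (-1.29 ± 0.20), Ptgs2, at 72.5 and 66.3 against 102 and 130.2, and Timp3 (-0.50 ± 0.15, adjusted p = 0.0391). Ccnd1, at 422 and 542 against 848 and 862, and Ankrd1, at 40.0 and 31.0 against 57.0 and 66.5 on its second probe set, did not pass. The count of 8 calls moved to 13 with 5 added to the values and to 4 with 100 added.

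Before induction the 2 lines already differed for some members. The mean of NERT mesoderm without OHT was at least 2-fold over the control mesoderm array in 14 members (29.8%, beside 3.69% of all probe sets), and the median ratio of the members was 1.35. These values share the -OHT arrays with the choice of the members and the control side is 1 array, so they are a description. Rtp4 read 511 and 601 in NERT mesoderm without OHT, against 41.6 in control mesoderm, Usp18 234 and 312 against 24.6, and Trim30a 130.5 and 123 against 17.4. Frzb read 59.6 and 83.0 against 9.49, and Ccnd2 534 and 541 against 132. Slc43a2 and Mest were lower in NERT mesoderm, at 46.9 and 64.7 against 115 and at 734 and 1282 against 2088.

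**Figure D4:**
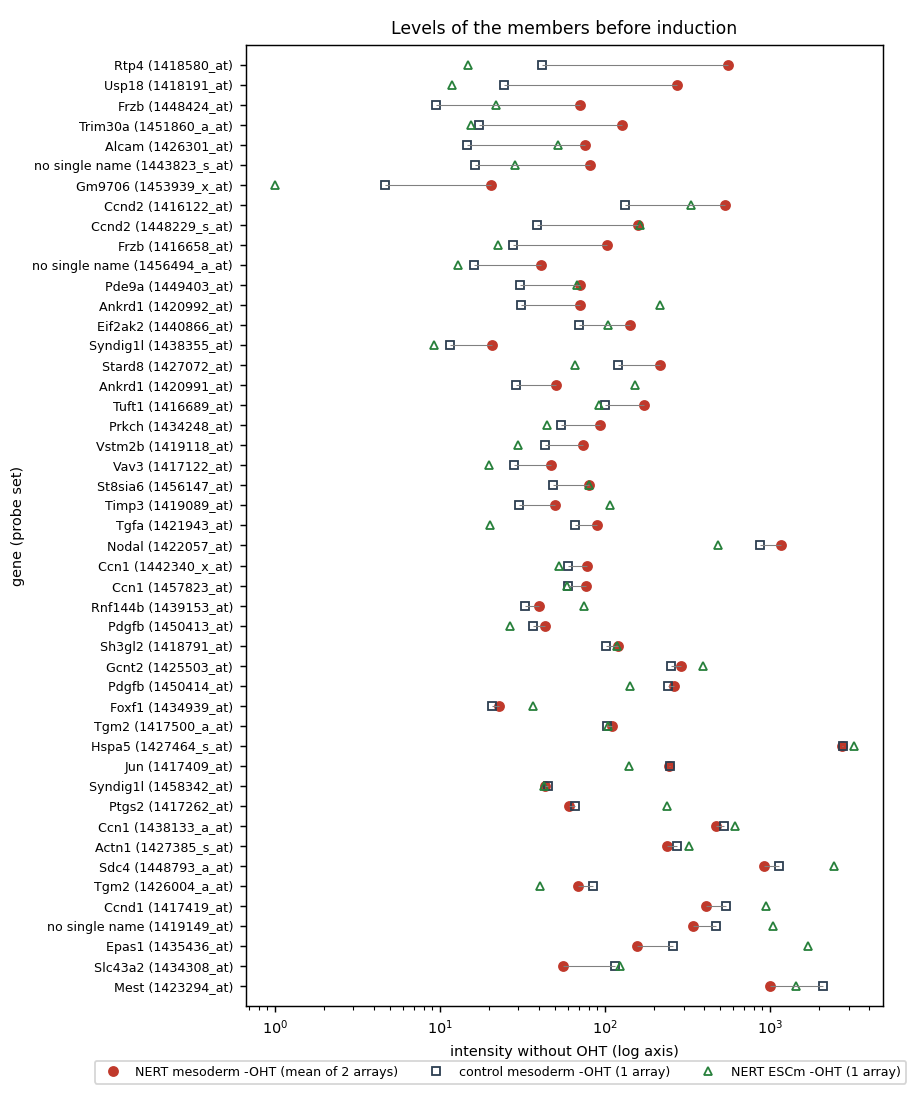
Intensity (log axis) of each member without OHT in NERT mesoderm (filled circles, mean of 2 arrays), control mesoderm (open squares) and NERT ESCm (open triangles), with rows ordered by the ratio of NERT to control mesoderm. Rtp4, Usp18 and Frzb stand at the top with wide gaps between the lines, and Epas1, Sdc4 and Ptgs2 have their ESC value far to the right.

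Many members stood at another level with CHX alone. Without OHT, 12 members were at least 2-fold higher with CHX (25.5%, beside 11.7% of all probe sets) and 8 were at most 0.5 of the level without it (17.0%, beside 5.27%). These ratios also share the -OHT arrays with the choice of the members. The highest were Jun (14.7), Ptgs2 (8.15), both Ankrd1 probe sets (8.10 and 7.87) and the 3 Ccn1 probe sets (4.76 to 5.15), most of them known as rapid responders to serum. Foxf1 (3.85), Rnf144b (3.33), a probe set without a gene name (2.62), Timp3 (2.53) and Slc43a2 (2.19) followed. The lowest were the first Frzb probe set (0.271), the probe set shared by Trim30a and Trim30d (0.306) and a probe set without a gene name (0.336). Trim30a (0.377), Gm9706 (0.392), Rtp4 (0.415), the second Tgm2 probe set (0.438) and Usp18 (0.491) came next. Changes with OHT under CHX were thus read from levels that differed from those without CHX for 20 of the 47 members by at least 2-fold.

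Of the 36 genes, 26 had 55 further probe sets, read from the same arrays that chose the genes. Their mesodermal ratios ran between 0.257 and 6.04 with a median of 1.74, and 5 were below 1, beside a median of 0.983 over all probe sets of the array. Among them 9 probe sets of 6 genes met all mesodermal conditions and missed membership through the ESC limit alone, the 3 of Tgm2, 2 of Ccnd1 and 1 each of Gcnt2, Prkch, Sh3gl2 and Trim30a. For Ccnd1 the 2 had ESCe ratios of 1.52 and 1.59.

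The limits of the rule cut through closely spaced values. Just inside 2-fold were Rtp4 (2.00) and the 2.01-fold Ccnd2 and Eif2ak2, and just outside Arhgap32 (1.998), at 353 and 418 with OHT against 233 and 153, a second Timp3 probe set (1.991), at 147 and 200.3 against 76.2 and 98.5, and Coq8b (1.973), at 136 and 175 against 67.4 and 90.5. At the ESC limit Slc43a2 was inside at 1.49, with 184 against 123 in ESCm and 149 against 110.4 in ESCe, as were Usp18 and Frzb at 1.46 in ESCe, where Usp18 read 13.8 against 9.44 and Frzb 27.7 against 19.02. Outside it were Btg2 (1.503 in ESCe, with 473 and 882 against 263 and 334 in mesoderm), an unnamed probe set (1.503 in ESCm, with 559.6 and 584 against 295 and 272) and a second Ccnd1 probe set (1.519 in ESCe, with 1028 and 1836 against 594 and 768). The ESC ratios come from 1 array on each side, so their spread is not known.

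The 2 +OHT arrays did not carry the members equally. In 38 of the 47 members replicate 2 read higher than replicate 1, with a median ratio of 1.36, while over all probe sets replicate 2 was higher in 65.2%, with a median ratio of 1.09. Replicate 2 of the -OHT arrays was higher in 34 members (50.1% of all). Set within replicate numbers, the +OHT over -OHT ratio had a median of 2.31 in replicate 1 and 2.47 in replicate 2, where the rule itself set every ratio above 1. Without replicate 2 of the +OHT arrays 25 of the 47 met the rule, and without replicate 1 of them 43 did. Under CHX the median ratio was 1.30 in replicate 1, with 36 of the 47 above 1, and 1.85 in replicate 2, with 38 above 1.

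The pathways around the members were read from lists of known genes, each gene on its strongest probe set, beside 90 higher and 7 lower calls under CHX among 12188 genes. Under CHX the 23 tested YAP and TEAD targets had 1 call, Fjx1, at 921 ± 9.44 with OHT and 100.8 ± 14.8 without (SD, n = 2 each). Their median change was -0.06, with 9 of 23 above 0. The 21 actin and SRF targets, 21 G1 regulators, 11 PDGF and EGF family genes, 19 TGF-beta genes, 19 interferon genes and 15 blood and endothelial regulators had 0 calls, with medians of -0.06, -0.03, 0.16, 0.04, 0.03 and 0.09. Of the 19 chaperones and unfolded protein genes Ddit3 was lower, at 685 ± 126 with OHT and 1489 ± 219.6 without. Their median change was 0.006, with 10 of 19 above 0. Of the 19 immediate early genes Fosl1 was lower, at 65.4 ± 21.1 with OHT and 217 ± 41.7 without. The immediate early list had a median of -0.198, with 6 of 19 above 0, beside 0.005 and 6219 of 12188 over all genes. Of 14 imprinted genes Phlda2 was higher, at 2339 ± 446 and 1064 ± 42.8. Of 20 Notch pathway genes, none of them a member, 5 were higher, among them Nrarp, Lfng, Jag1 and Notch1 with changes of 4.25, 2.56, 2.26 and 2.09 on the log2 scale.

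Without CHX, where the members themselves were chosen, the list genes that are not members are given beside 0.613% of all probe sets called higher and 0.28% called lower. The Notch pathway list had 5 higher of 20, Nrarp, Jag1, Notch1, Lfng and Dtx1. The YAP and TEAD list had 1 higher (Fjx1) and 1 lower (Igfbp3) of 21, the actin and SRF list 1 higher (Fhl2) of 20, the PDGF and EGF list 1 higher of 9, the heparin-binding EGF-like factor Hbegf, at 1876 ± 170.5 with OHT and 473 ± 2.47 without. The G1, interferon, chaperone, blood and immediate early lists had 0 calls, the TGF-beta list 1 lower (Skil), and the imprinted list 1 higher (Phlda2) and 1 lower (Ascl2). The chaperone list had a median of 0.20, with 15 of 18 above 0, beside a median of -0.05 over all other genes.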

How the data were processed

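RNA of 16 samples was hybridised to mouse Affymetrix 430 2.0 arrays, 1 array each. The authors normalised the arrays in dChip to the invariant set of the control mesoderm +OHT array and deposited linear model-based intensities without detection calls. Array medians were 42.0 to 46.9, and the number of arrays limits the precision. Of the probe sets, 34945 had 1 gene symbol in the platform annotation, 932 several and 9160 none.

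Members were found by the rule given at the start of the report, from group means of the deposited values. The members and gene lists were chosen with earlier results of these data known. Tests used limma 3.58.1 in R 4.3.3 (lmFit, eBayes with trend, two-sided, Benjamini-Hochberg adjustment over all probe sets tested, threshold 0.05) on log2(intensity + 25), keeping those whose mean reached 50 in 1 group or more, so fold changes of dim probe sets are understated. OHT with CHX was fitted on the 8 NERT mesoderm arrays (23971 probe sets, 4 residual degrees of freedom). OHT in control cells, and mesoderm against ESC in the control line, were fitted on all 16 arrays (25847 probe sets, 6 residual degrees of freedom). Ratios are of group means with nothing added. Every named member is given with its change, with array values for the 12 largest ratios, members called with CHX, those nearest the limits of the rule and the 5 largest differences in each direction between mesoderm and ESC of the control line; array values of other members were chosen after seeing them, and list genes are named where the test called them. The script was tested on simulated data. Alternatives were 5 or 100 added to the values, no filter, quantile normalization, other fits, other limits of the rule, the replicate number as a block, and leaving out each array of a pair. Tables were handled in Python 3.11.15 with numpy 2.4.6 and pandas 2.3.3, and plots drawn with matplotlib 3.10.9.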

Additional observations from a re-analysis of the deposited data

How the results depend on the processing

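With CHX, where 1 member was called, no filter gave 0, a fit on all 16 arrays 2, and leaving out 1 array 0 to 3. The replicate block gave 5 (Prkch, Tgfa, Ankrd1 and both Frzb probe sets, adjusted p 0.0149 to 0.0336). Deviations of arrays with the same replicate number correlated at 0.007 to 0.513 over the 6 pairs of groups, and with 2 arrays a group this does not settle whether the numbers pair the samples. The 148 probe sets called with CHX became 82 to 611 on leaving out 1 array, with 611 (230 higher, 381 lower) without +CHX +OHT replicate 2, 82 without +CHX -OHT replicate 1 and 92 without +CHX -OHT replicate 2. The Frzb call was lost under 6 of 16 alternatives. Of the members, 8 were called between mesoderm and ESC of the control line, 13 with 5 added, 4 with 100 added, 5 without a filter, 4 with 12 conditions as groups and 5 to 9 on leaving out 1 array. Over all probe sets the 5408 calls became 3447 with 12 conditions as groups. The rule found 155 members at 1.5-fold in mesoderm, 9 at 3-fold, 25 with a stricter ESC limit, 105 with a limit of 2, 572 without a minimum difference and 72 to 89 on leaving out 1 array, which kept 25 to 43 of the 47. With 25 added before the ratio 46 were found, of which 28 were among the 47. Calls in control cells stayed at 0 under all 15 alternatives run. The cause of these shifts was not tested.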
